A study of Mus musculus with 6 samples.

Results

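Open chromatin was measured by ATAC-seq, which inserts sequencing adapters into accessible DNA with a transposase, in organoids (3-dimensional tumour cell cultures) of mouse non-small cell lung cancer. The narrow promoter peaks described here were chosen by their annotation and width in the authors' deposited table: peaks on chromosomes 1, 2, 4, 7, 9, 10, 11 or 13, annotated to a promoter within 1 kb of a transcription start, and at most 5000 bp wide. They numbered 10891 of the 214414 peaks and were assigned to 6921 genes. There were 3 libraries of organoids resistant to immunotherapy and 3 of sensitive organoids, and these names are all that the labels used here give about the groups, with no strain, genotype, drug or time of culture. They do not say either whether the 3 libraries of each group are separate cultures, so p-values cover the spread among libraries, and that spread may be technical only.

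A promoter is the stretch around a transcription start where transcription factors and the polymerase keep the DNA free of nucleosomes. Promoters rich in CpG dinucleotides mostly belong to genes that every cell uses and are accessible in most tissues, while CpG-poor promoters more often belong to genes of particular tissues and open and close with cell identity. In carcinoma cells, epithelial identity rests on junction and polarity genes, several of which carry the E-box CAGGTG, the motif bound by the repressors of the SNAI and ZEB families, and mesenchymal identity is marked by vimentin and collagens.

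As examples, not as a sample of the set, the 250 bases before the start are printed for 6 genes. They have RefSeq promoter windows (build GRCm38.p6, the same coordinates as the mm10 of the table), all inside peaks that differed between the groups. Capitals mark, on either strand, the GC box GGGCGG, to which SP and KLF factors bind, and the CCAAT box of the factor NF-Y. They also mark the TATA box, searched as TATAAA, and the E-box of SNAI and ZEB factors. The Vim window held 2 CCAAT boxes and a TATA box and no E-box, the Lsr window held 4 E-boxes, and the lower Septin9 promoter held 1 E-box where the higher one held none. The E-box was in every printed lower window, but in only 36.0% of the 283 lower windows of the set. Of lower windows not printed, that of Tnk1 held 1 E-box and those of Specc1, Phc2 and Hivep3 none.
Vim, higher, chr2:13574061-13574310, plus strand: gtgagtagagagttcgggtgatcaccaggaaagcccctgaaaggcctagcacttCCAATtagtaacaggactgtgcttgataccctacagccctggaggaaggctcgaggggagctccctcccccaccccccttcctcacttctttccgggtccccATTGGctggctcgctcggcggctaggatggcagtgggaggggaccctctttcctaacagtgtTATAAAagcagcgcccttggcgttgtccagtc
Col5a1, higher, chr2:27886175-27886424, plus strand: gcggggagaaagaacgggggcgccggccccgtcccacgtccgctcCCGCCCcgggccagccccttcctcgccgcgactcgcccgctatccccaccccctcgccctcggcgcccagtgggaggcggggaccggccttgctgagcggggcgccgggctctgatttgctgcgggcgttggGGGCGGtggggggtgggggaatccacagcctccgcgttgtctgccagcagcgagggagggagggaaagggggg
Ocln, lower, chr13:100552499-100552748, minus strand: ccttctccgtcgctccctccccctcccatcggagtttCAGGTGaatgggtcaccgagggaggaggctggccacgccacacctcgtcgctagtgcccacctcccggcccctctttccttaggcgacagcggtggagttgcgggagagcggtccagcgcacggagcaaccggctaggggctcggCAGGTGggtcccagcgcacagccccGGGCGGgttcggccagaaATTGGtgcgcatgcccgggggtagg
Lsr, lower, chr7:30973470-30973719, minus strand: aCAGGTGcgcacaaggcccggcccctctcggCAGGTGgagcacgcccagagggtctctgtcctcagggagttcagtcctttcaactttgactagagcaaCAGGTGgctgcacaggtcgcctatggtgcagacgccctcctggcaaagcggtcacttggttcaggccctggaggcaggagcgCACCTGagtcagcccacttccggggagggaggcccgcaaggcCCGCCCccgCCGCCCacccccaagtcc
Septin9, higher peak, chr11:117332063-117332312, plus strand: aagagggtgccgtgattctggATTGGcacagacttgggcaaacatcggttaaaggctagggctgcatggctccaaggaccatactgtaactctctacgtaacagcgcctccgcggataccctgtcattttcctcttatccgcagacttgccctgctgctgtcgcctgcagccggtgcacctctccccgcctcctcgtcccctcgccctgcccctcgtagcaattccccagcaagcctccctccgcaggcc
Septin9, lower peak, chr11:117199411-117199660, plus strand: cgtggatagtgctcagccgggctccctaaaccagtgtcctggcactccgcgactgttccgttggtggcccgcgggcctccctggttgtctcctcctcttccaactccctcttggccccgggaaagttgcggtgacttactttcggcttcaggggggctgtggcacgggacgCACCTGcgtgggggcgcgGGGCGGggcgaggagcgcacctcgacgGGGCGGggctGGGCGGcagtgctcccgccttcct
Prkcz, lower peak, chr4:155361429-155361678, minus strand: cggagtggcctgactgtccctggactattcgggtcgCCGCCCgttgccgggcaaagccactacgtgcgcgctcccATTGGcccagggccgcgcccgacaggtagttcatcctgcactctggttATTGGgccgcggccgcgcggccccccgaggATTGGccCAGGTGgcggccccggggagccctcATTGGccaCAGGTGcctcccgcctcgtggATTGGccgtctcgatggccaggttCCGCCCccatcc

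Of the 10891 narrow promoter peaks, 7792 (71.5%) had an adjusted p in the authors' deposited table, and the other 3099, all with a mean normalized count of at most 14.7 over the 6 libraries, had none. A change is called here where the adjusted p of the authors' DESeq2 Wald test, adjusted by Benjamini-Hochberg over all tested peaks, was under 0.05. Fold changes are log2 values of resistant over sensitive organoids, with their standard errors (SE), and all of them are the authors' own. That positive values mean higher in resistant organoids is known only from the table's title. Values per library were not used, because the names of the library columns match no sample label.

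A smaller share of these promoters than of all peaks was called, and most that were called were less open in resistant than in sensitive organoids. Called higher were 125 of the 7792 tested (1.60%), beside 5.02% of all 102173 tested peaks. Called lower were 489 (6.28%), beside 7.34% of all tested peaks. In either direction 614 were called (7.88%), beside 12.4% of all tested peaks. On the same 8 chromosomes the gap was smaller: of peaks outside promoters, 2.86% were called higher, 7.82% lower and 10.7% in all. Of peaks 1 to 3 kb from a start there, 1.29% were called higher, 5.46% lower and 6.75% in all, less than of the narrow promoters. The median log2 fold change of the narrow promoters was -0.16 (quartiles -0.37 and 0.08), beside -0.07 over all tested peaks. A change of at least 2-fold was called for 75 promoters that were higher and 204 that were lower. Among the called promoters the log2 fold change had a median of 1.09 for the higher and -0.95 for the lower ones.

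Higher promoters made up 20.4% of the calls. That share was 38.0%, 38.7%, 37.4% and 45.2% after subtraction of the median of the surrounding 5 Mb, of the chromosome, of peaks of like mean count, and of the window and the mean count together. Lower calls were the more frequent ones on each of these scales.

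**Figure D1:**
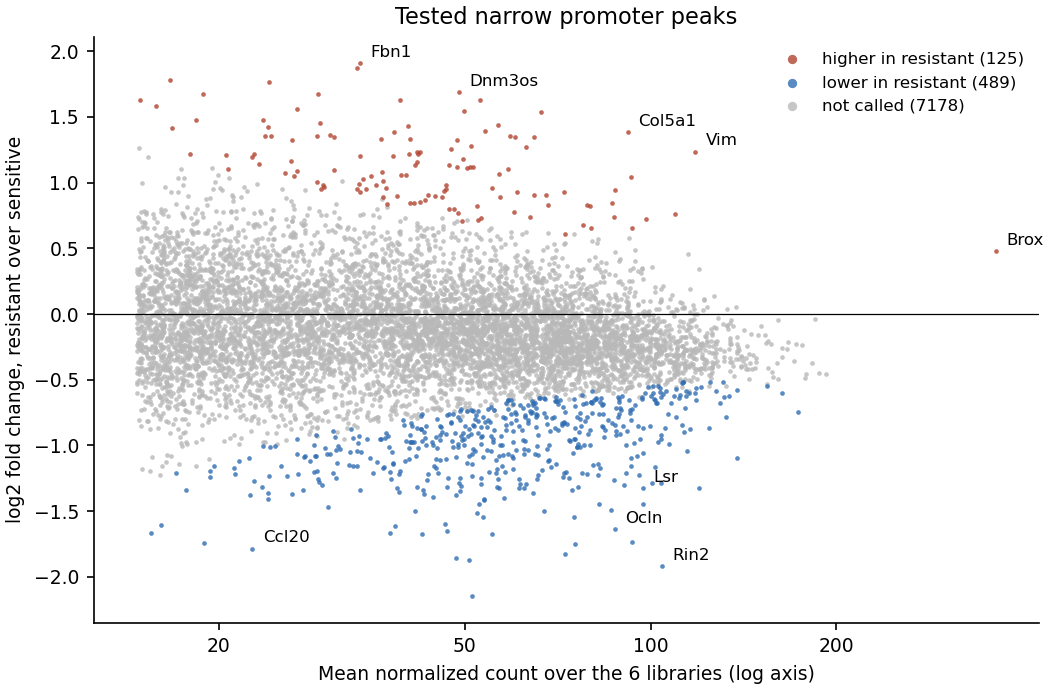
Each point is a tested narrow promoter peak, with its mean normalized count over the 6 libraries (log axis) against its log2 fold change of resistant over sensitive organoids. The 125 higher and 489 lower peaks stand outside a cloud whose centre lies slightly below 0, and Vim, Col5a1 and Dnm3os are among the higher ones and Rin2, Ocln, Lsr and Ccl20 among the lower ones.

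Among called promoters with a mean count at or above the median of the tested ones (41.8), leaving out predicted genes, the 10 largest increases had log2 fold changes of 1.28 to 1.69 per the authors' table as deposited. The largest was that of Dnm3os, a non-coding RNA that carries miR-199a and miR-214, at 1.69 (SE 0.29, adjusted p 3.29e-07). Tns1, which encodes the focal adhesion protein tensin 1, had a log2 fold change of 1.63 (SE 0.28), and Il1rl1, the receptor of interleukin 33, one of 1.55 (SE 0.28). The transcription factor genes Tbx18, Hlx and Runx3 had 1.39, 1.36 and 1.35 (SE 0.28, 0.25 and 0.25). S1pr2, a receptor of sphingosine 1-phosphate, had 1.34 (SE 0.24). Tnc, which encodes the matrix protein tenascin C, had 1.32 (SE 0.27), and Dnm1, which encodes the endocytic GTPase dynamin 1, had 1.28 (SE 0.28).

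Vim had the smallest p of the higher promoters. It encodes vimentin, the intermediate filament protein of mesenchymal cells, and its main promoter peak, printed above, had a mean count of 118 and a log2 fold change of 1.24 (SE 0.20, adjusted p 3.96e-08), a 2.36-fold difference. Col5a1, which encodes a chain of the fibrillar collagen V, followed with a mean count of 91.8 and a log2 fold change of 1.38 (SE 0.22, adjusted p 4.32e-08). These were the strongest signals, by mean count, among the 10 largest increases and the 5 smallest p-values on the higher side.

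The 10 largest decreases among the same promoters had log2 fold changes of -1.60 to -1.92 in the authors' deposited table. Rin2, which encodes an activator of the vesicle GTPase Rab5, had a log2 fold change of -1.92 (SE 0.24, adjusted p 2.76e-13) at a mean count of 104. Tnk1, a non-receptor tyrosine kinase gene, had -1.87 (SE 0.30). Prkcz, which encodes the atypical protein kinase C zeta of the apical polarity complex, had -1.86 (SE 0.30), and Septin9, which encodes a filament-forming GTPase of the cytoskeleton, had -1.82 (SE 0.25). Tbcd, a chaperone gene of tubulin, had -1.73 (SE 0.22), Trim68, a ubiquitin ligase gene, -1.68 (SE 0.32), and Pglyrp1, a gene of a bacteria-binding secreted protein, -1.67 (SE 0.26). Rtcb, the gene of the tRNA splicing ligase, had -1.65 (SE 0.29), and its peak lay 259 bp from the start. Ocln, which encodes the tight junction protein occludin, had -1.63 (SE 0.22, adjusted p 4.10e-11), and Car8, the gene of a carbonic anhydrase-related protein, had -1.60 (SE 0.29). All 20 of these promoters kept their call under the 4 subtractions named above. A peak is named after the gene of its annotated start, which can be one of several starts of that gene.

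**Figure D2:**
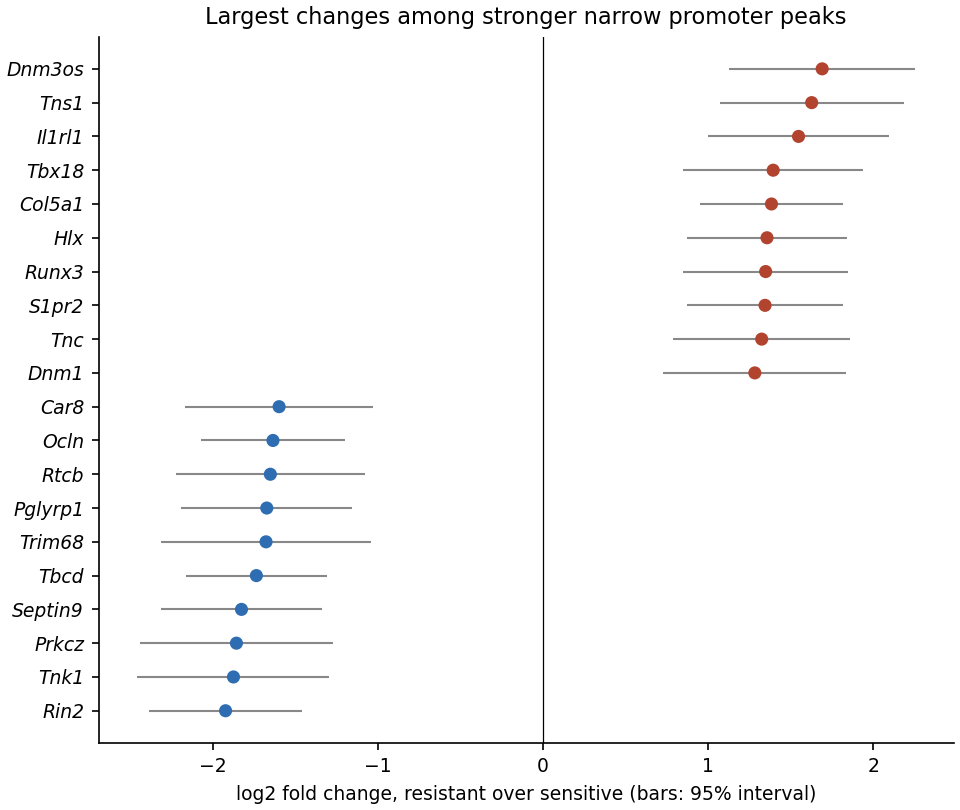
Points are the log2 fold changes of resistant over sensitive organoids of the 10 largest increases and 10 largest decreases among called narrow promoter peaks with at least the median mean count, and bars are their 95% intervals. The increases lie between 1.28 and 1.69 and the decreases between -1.60 and -1.92. Every interval lies clear of 0, which follows from the choice among called peaks.

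Log2 fold changes of the 5 narrow promoters with the highest mean counts lay between -0.46 and 0.48. The promoter of Brox, a gene of endosomal sorting, which also overlaps Aida, had the highest mean count (362) and was called higher at 0.48 (SE 0.15, adjusted p 0.0155). The next by mean count were those of Bcl3, Nabp2, Klf16 and Cep57, at 183 to 192, with log2 fold changes of -0.46, -0.45, -0.04 and -0.38, none of which was called. Bcl3 encodes a nuclear regulator of NF-kappa B, Nabp2 a single-stranded DNA binding protein, Klf16 a zinc finger factor and Cep57 a centrosome protein.

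At like signal, a smaller share of narrow promoters was called than of peaks outside promoters on the same 8 chromosomes. At a mean count over 60 and up to 100, 204 of 1871 narrow promoters (10.9%) were called, against 583 of 1624 non-promoter peaks (35.9%). Above 100, the shares were 61 of 473 (12.9%) and 309 of 647 (47.8%). Up to 20, where few changes could be detected, they were 1.17% and 1.75%. The same held for the interval: above 100, the 95% interval of the log2 fold change lay inside a 2-fold change for 90.3% of the narrow promoters and 62.0% of the non-promoter peaks. These are counts over regions of the same 6 libraries, described without a test. The class above 100 has no upper limit, and there the signal was less alike. Median mean counts were 113.5 for narrow promoters and 128.6 for non-promoter peaks, and median widths 4351 and 6901 bp.

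**Figure D3:**
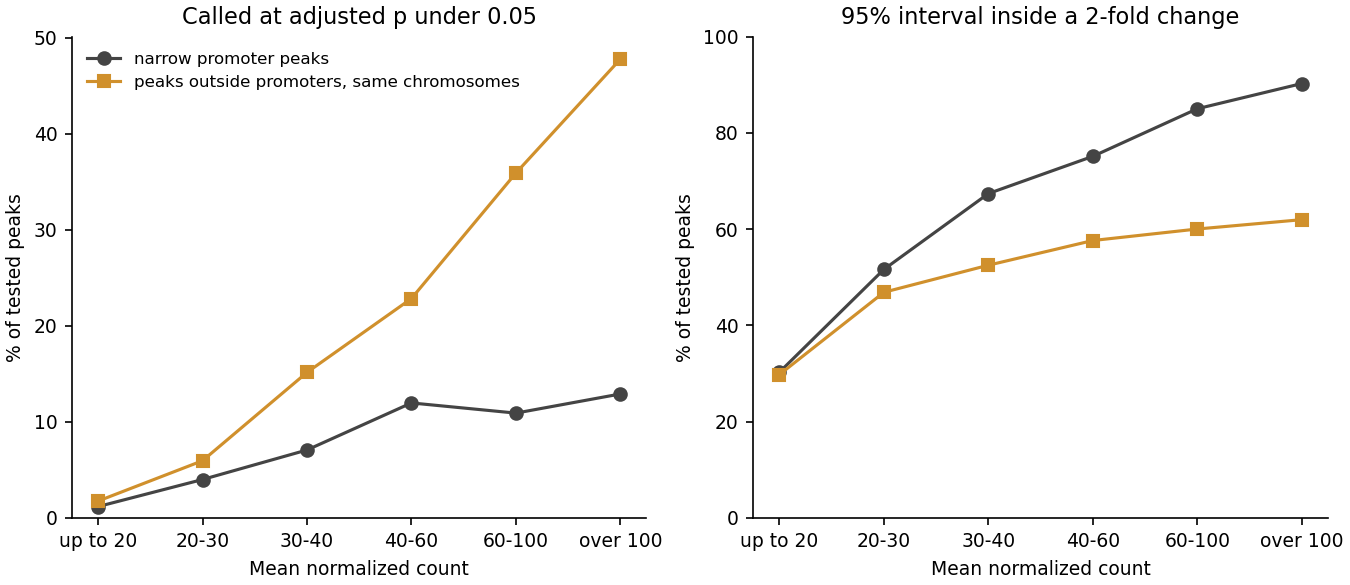
The left panel gives the percentage of tested peaks called and the right one the percentage whose 95% interval lies inside a 2-fold change, by class of mean normalized count, for narrow promoter peaks and for peaks outside promoters on the same chromosomes. Above a count of 100 the called share is 12.9% against 47.8%, at median mean counts of 113.5 and 128.6, while at the lowest counts both curves meet.

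On the other chromosomes a larger share of the narrow promoters was called. There 1172 of 8695 tested peaks were called (13.5%), against 7.88% on the 8 chromosomes, with 4.77% higher and 8.71% lower. Promoter peaks wider than 5000 bp on the 8 chromosomes were almost all on the lower side when called, with 22 higher and 512 lower of 2068 tested. At a mean count over 60 and up to 100, 10.9% of narrow and 15.9% of wider promoter peaks were called, and 85.0% and 83.7% had an interval inside a 2-fold change. Above 100, where 1545 of the wider peaks lie, 12.9% and 29.3% were called, and 90.3% and 82.8% had such an interval. The median mean counts in that class were unlike, at 113.5 for narrow and 142.5 for wider promoter peaks. Peaks 1 to 3 kb from a start gave 40 higher and 170 lower of 3112 tested.

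Within the set, the share called lower was larger in each wider class above 1000 bp, and the share called higher was not. Called lower were 7 of 853 promoters (0.82%) over 1000 and up to 1500 bp wide and 171 of 1322 (12.9%) over 4000 and up to 5000 bp, while called higher were 11 (1.29%) and 17 (1.29%). Among 109 tested promoters of at most 1000 bp, 5 were called lower (4.59%) and 2 higher. Wider peaks also had higher mean counts and smaller errors, and their part in this was not tested. The widest members, 17 peaks of 4991 bp, had log2 fold changes of -1.25 to 0.61 (median -0.25), with 4 called lower and none higher. The narrowest promoter peaks outside the limit, 12 peaks of 5001 bp, had -0.84 to 0.04 (median -0.29), with 1 called lower and none higher. Promoters that overlapped their start had a median of -0.18 (101 higher and 438 lower of 6210). Those upstream of it had -0.08 (8 and 21 of 695) and those downstream -0.05 (16 and 30 of 887). Their median mean counts were unlike, at 48.9, 22.3 and 23.9 in this order. In the set, the median was -0.08 at mean counts over 20 and up to 30, and -0.15 over 40 and up to 60. The part of the mean count in the differences by place was not tested. Promoters shared by divergent genes, with a RefSeq start on each strand, gave 4 higher and 54 lower of 644 (0.62% and 8.39%), at a median mean count of 72.7. Of all narrow promoters with a mean count over 60 and up to 100, 1.23% were called higher and 9.67% lower. No RefSeq start lay in 3849 of the tested narrow promoters, of which 67 were called higher and 206 lower. A narrow promoter peak thus need not lie at the main start of its gene.

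The chromosomes differed in level. The medians of the narrow promoters ranged from -0.22 on chromosomes 2 and 11 to -0.07 on chromosome 9, and on each of the 8 they lay below the median of all tested peaks of that chromosome, by little: -0.22 beside -0.21 on chromosome 11 and -0.10 beside -0.05 on chromosome 1. Higher calls ranged from 5 of 1182 on chromosome 7 (0.42%) to 19 of 561 on chromosome 13 (3.39%). In 137 windows of 5 Mb with at least 20 tested narrow promoters, the median ran from -0.40 to 0.14 and was below 0 in 126.

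In the authors' deposited table, the called promoters of a list of epithelial identity genes were lower. For comparison with this list and those below, 1.60% of all tested narrow promoters were called higher and 6.28% lower. Of 21 tested peaks at 13 epithelial genes, 6 were lower and none higher, with a median of -0.47, beside -0.16 over the whole set. They belonged to the tight junction genes Ocln (-1.63), Lsr (-1.32, SE 0.20, adjusted p 8.55e-09) and Marveld2 (-1.32, SE 0.30), the polarity genes Patj (-0.91) and Llgl2 (-0.86), and Ap1m2 (-0.79), an adaptor gene of epithelial protein sorting. No peak of the list rose even at an unadjusted p under 0.05 of the authors' DESeq2 test. A second Patj peak had -0.65, and 4 others of Llgl2 had -0.51 to 0.22, none called. The 3 tight junction genes had 2.5- to 3.1-fold lower signal and kept their calls under every subtraction, after which 3 to 5 of the 6 calls were left. Ocln and Marveld2 are near neighbours on chromosome 13, and the Marveld2 peak also overlaps Rad17. The 3 tested promoters of the transcription factor gene Ehf had -0.47, -0.45 and -0.30, those of Elf5 and Esrp1 had 0.19 each, and none of these was called.

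Among mesenchymal transition genes, 3 of 16 tested peaks at 11 genes were higher and 1 was lower, with a median of 0.27. The higher ones were Vim and both peaks of Twist2, a transcription factor of mesenchyme (1.63, SE 0.31, and 0.97, SE 0.34, the second of which was no longer called when the window median was subtracted). The second Vim peak, at a mean count of 16.5, had 0.75 and was not called. A peak of Tgfbi, which encodes a secreted matrix protein, was lower at -0.69 (SE 0.24, adjusted p 0.036), a call that ended under every subtraction, and the other Tgfbi peak had 0.38. Snai1 and Zeb2, which encode repressors of epithelial genes, had 0.34 each, not called.

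Collagen promoters were higher where they were called. Of 26 tested peaks at 15 collagen genes, 6 were higher and none lower, with a median of 0.28. Beside Col5a1 they were the collagen VI genes Col6a2 (1.17, SE 0.35) and Col6a1 (1.05), Col16a1 (0.91, SE 0.26), Col7a1 (0.77), which encodes anchoring fibril collagen, and Col8a2 (0.65). Both tested Col1a1 peaks, of the main collagen of connective tissue, were not called, at -0.46 and -0.01, and neither was Col12a1 at 0.73. At an unadjusted p under 0.05 of the authors' DESeq2 test, 9 collagen peaks were higher and 1 lower, and after the subtractions 4 to 7 were called higher. Collagens are named in the title of the study, so this list is not independent of it. Among genes of collagen modification and crosslinking, 3 of 17 tested peaks were higher and none lower: Adamts14, a procollagen protease (1.08, SE 0.33), Plod1, a lysyl hydroxylase (1.06, SE 0.29), and Loxl1, a lysyl oxidase (0.71, SE 0.26), whose call ended under both subtractions that use the window median. At an unadjusted p under 0.05 these were 4 higher and 1 lower.

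Markers of other cells were checked beside these groups. Of 7 tested peaks at 5 fibroblast genes, 1 peak of Fap was higher (1.35, SE 0.36), and the other 6 peaks, of Fap, Col1a1, Dcn, Meox1 and Dpt, had -0.54 to 0.76 and were not called. The median of these 7 was 0.47, and 0.80 after the window subtraction. At an unadjusted p under 0.05, 2 were higher and 0 lower. Of the T and NK cell genes, 3 of 5 peaks were tested, 2 of Prf1 and 1 of Lck, with -0.14, -0.11 and 0.19. Endothelial genes had 1 tested peak of 5 and myeloid genes none of 4. The highest mean count of a tested peak was 103 for epithelial markers and 78.7 for T and NK cell markers. It was 55.0 for fibroblast and 27.6 for endothelial markers. Whether a given change lies in the share of cells with an open promoter or in its openness per cell cannot be told apart in bulk libraries, and the part of other cell types in these results was not tested.

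Of 11 chemokine and cytokine promoters, 3 were lower: Ccl20 (-1.78, SE 0.40, at a mean count of 22.7), which attracts CCR6-bearing lymphocytes and dendritic cells, Cxcl16 (-1.15, SE 0.22), the ligand of CXCR6, and Cxcl17 (-0.87, SE 0.21), a chemokine of mucosal surfaces, whose call ended when the window and mean count medians were both subtracted. The Cxcl16 peak also overlaps Zmynd15. Of 11 tested peaks at 7 genes of inhibitory ligands and enzymes, 3 were lower, those of Arg1, an arginase (-1.08), Nt5e, the CD73 ectoenzyme (-0.95), and Lgals9, a galectin (-0.64), but all 3 calls ended when the window or chromosome median was subtracted. Of 11 interferon response promoters Zbp1, a nucleic acid sensor gene, was lower (-0.997, SE 0.30), and of 4 antigen presentation promoters Canx, the gene of the chaperone calnexin, was lower (-0.55, SE 0.20). Both calls ended under the window subtraction. Of 13 TGF-beta and BMP pathway promoters, Smad6, which encodes an inhibitor of the pathway (-0.95, SE 0.20), and Inhbb, which encodes an activin chain (-0.75, SE 0.23), were lower; the Inhbb call ended under 3 of the 4 subtractions. Of 4 tested promoters on a list of lung and other endoderm lineage genes, with a median of -0.67, Pdpn was higher (0.96, SE 0.34). Pdpn encodes the alveolar type 1 cell marker podoplanin. Muc5b, Hnf4a and Foxj1 had -0.79, -0.77 and -0.57 and were not called. At an unadjusted p under 0.05 of the authors' DESeq2 test, 1 of the 4 was higher and 3 were lower. Of 4 tested peaks of AP-1 and immediate early genes none was called by the authors' DESeq2 test, and 1 had an unadjusted p under 0.05.

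Promoters of basic cell functions were rarely called. The 8 lists were cytosolic ribosome, mitochondrial ribosome, oxidative phosphorylation, proteasome, tRNA synthetases, splicing factors, DNA repair and cell cycle. On them 205 peaks at 171 genes were tested. By the authors' DESeq2 test none was higher and 4 (1.95%) were lower, beside 1.60% higher and 6.28% lower of all tested narrow promoters. At an unadjusted p under 0.05 the numbers were 0 higher and 20 lower. The 4 were Rars, an arginyl-tRNA synthetase gene (-0.96), Psme4, a proteasome activator gene (-0.84), Bub1, a spindle checkpoint kinase gene (-0.74), and Atp5e, a gene of the ATP synthase (-0.68), and Rars alone kept its call when the window median was subtracted. Their median of -0.15 lay near that of the whole set, and 81.0% had a 95% interval inside a 2-fold change. The single lists had medians of -0.20 to -0.09 as deposited, and within 0.07 of 0, some above and some below it, after the subtractions. The 187 tested promoters of Zfp zinc finger genes gave 1 higher, a peak of Zfp708 in the span of Rslcan18 at 0.65 (a call that ended under the window subtraction, adjusted p 0.054), and 5 lower, among them Zfp750, a factor of epithelial differentiation, at -1.18 (SE 0.25), whose peak lies in the span of Tbcd.

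Some genes had narrow promoters that, in the authors' deposited table, moved in opposite directions. Of 1473 genes with at least 2 tested narrow promoters, 64 had a higher one, 196 a lower one, and 5 had both. More of them had at least 2 called the same way, 8 higher and 17 lower. Whether 5 is more or fewer than unrelated calls would give was not tested. Prkcz had a peak at -1.86 (SE 0.30), whose sequence is printed above, and another at 1.20 (SE 0.30, adjusted p 0.0014), 93.4 kb away. Septin9, which is transcribed from several first exons, had 5 tested promoters. The first, printed above as the lower one, had -1.82 (SE 0.25, adjusted p 7.02e-11), and the one 134 kb further on, printed as the higher one, had 0.68 (SE 0.22, adjusted p 0.021). The other 3 had 0.01, 0.61 and 0.04 and were not called. Prkcz and Septin9 kept both calls under every subtraction.

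The other 3 genes changed less. Hivep3, a gene of a large zinc finger protein, had -0.86 (SE 0.27) and 0.93 (SE 0.24) at promoters 252 kb apart, with the 3 others at -0.51, 0.34 and 0.43. Phc2, which encodes a subunit of a Polycomb complex, had -0.73 (SE 0.26) and 0.83 (SE 0.22), 56.6 kb apart. Specc1, a gene of a coiled-coil protein, had -0.85 (SE 0.20) and 0.72 (SE 0.26), 70.1 kb apart. In all 3 the lower call ended when the window median was subtracted, with adjusted p of 0.099 for Hivep3, 0.056 for Phc2 and 0.055 for Specc1.

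**Figure D4:**
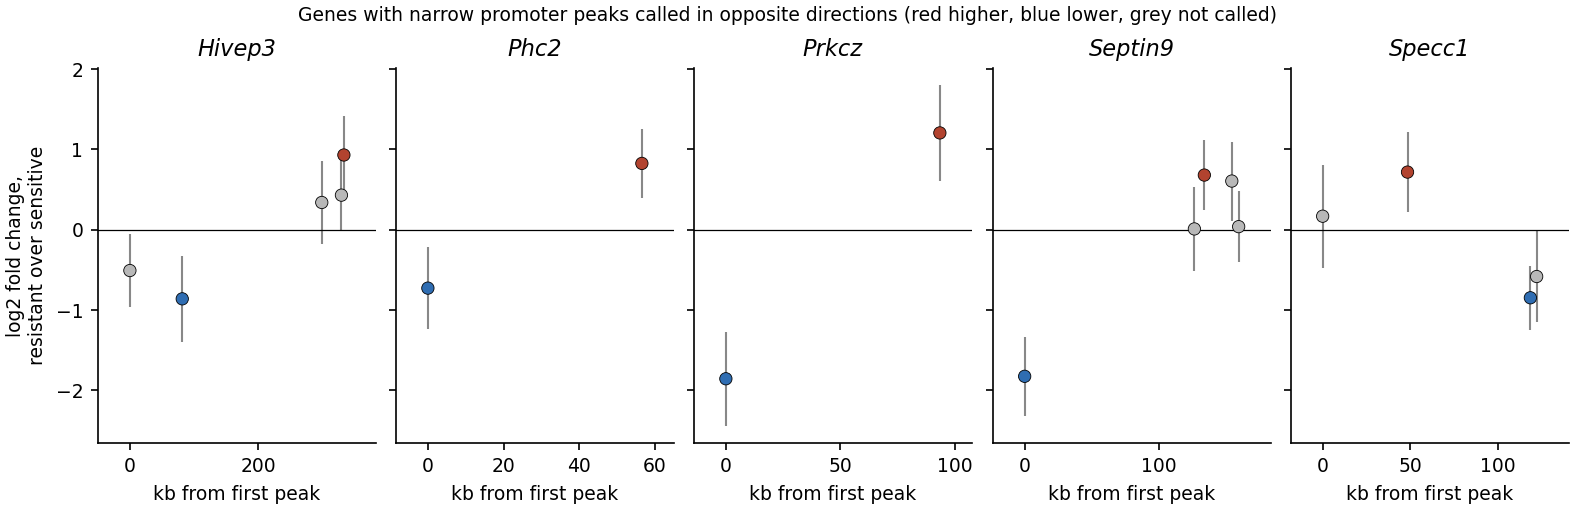
Each panel is a gene, each point a tested narrow promoter peak placed by its distance in kb from the gene's first peak in the direction of transcription, and bars are 95% intervals of the log2 fold change of resistant over sensitive organoids. In every panel a red point (higher) and a blue point (lower) stand on opposite sides of 0, as the genes were chosen for this. They are furthest apart in Prkcz and Septin9.

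In the authors' deposited table, microRNA loci were among both the higher and the lower promoters. Of 106 tested peaks of genes with microRNA symbols, 6 were higher and 6 lower. That is 11.3% in all, beside 7.88% of the narrow promoters and 12.4% of all tested peaks. These symbols take in the host gene Mir100hg. Genes that RefSeq classes as microRNAs gave 5 higher and 6 lower of 100 tested peaks. Taken by position, 93 tested narrow promoters held a mature microRNA, 6 of them higher and 6 lower. The mature sequences that the results turn on are given 5′ to 3′ from RefSeq, with the seed (bases 2 to 8, which pair with targets) in capitals.
mmu-miR-199a-5p: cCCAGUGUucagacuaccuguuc
mmu-miR-199a-3p: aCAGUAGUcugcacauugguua
mmu-miR-199b-3p: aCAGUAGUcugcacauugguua
mmu-miR-214-3p: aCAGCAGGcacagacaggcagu
mmu-miR-30a-5p: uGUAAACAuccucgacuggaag
mmu-miR-125b-5p: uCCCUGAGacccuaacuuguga

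In called peaks, the miR-199 3p seed CAGUAGU was found at Mir199a-2 and Mir199b, both in higher peaks. Loci with this seed outside called peaks are not covered here. The Dnm3os promoter at 1.69 contains Mir199a-2, a second Dnm3os peak had 1.88 (SE 0.35), and a peak annotated to Mir214 in the span of Dnm3os had 1.77 (SE 0.39, adjusted p 0.000171). The peak annotated to Dnm1, at 1.28, contains Mir199b, whose 3p sequence is the same as that of miR-199a-3p in the lines above. A promoter of Mir100hg, the host of miR-125b, was higher at 0.90 (SE 0.29). The peak of Mir30a, with the seed GUAAACA, was lower at -1.15 (SE 0.32, adjusted p 0.0059). The microRNA peak with the smallest p, that of Mir6917 at -1.44 (SE 0.21), lies in the span of Erbb3, an epithelial receptor kinase gene. A peak named after a microRNA can thus belong to the promoter or body of the gene around it, and the readout does not tell these apart.

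RefSeq promoter windows (250 bases before to 50 after a start) could be placed in 3943 of the 7792 tested narrow promoters (50.6%), so a check over the whole set is void, and the following holds for those 3943. Changing promoters were poorer in CpG. The ratio of observed to expected CpG had a median of 0.453 in 58 higher promoters, 0.575 in 283 lower ones and 0.735 in 3602 that were not called, beside 0.384 in all 32851 windows of the table. Of promoters with a ratio up to 0.3, 16.0% were called, and of those above 0.9, 4.30%. CpG-poor promoters had lower mean counts, and the gap was also there at like counts: at a mean count over 60 and up to 100, 61 of 305 promoters with a ratio up to 0.6 were called (20.0%), against 70 of 1162 above it (6.02%).

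In all, 15 motifs were searched on both strands. Beside the 4 marked above they were the motif of ETS factors, searched as CCGGAAG, and that of the respiratory factor NRF1, searched as GCGCATGCG. The cyclic AMP response element was searched as TGACGTCA, and the AP-1 site, which differs from it by the spacing, as TGANTCA. The E-box of MYC and USF factors was searched as CACGTG, and the site of the grainyhead factors of epithelia as AACCNGGTT. The sites of TEAD and FOXA factors were searched as GGAATG for the first and as TGTTTAC for the second. The YY1 site was searched as AAGATGGCG and the RUNX site as TGTGGTT, and the last was the interferon-stimulated response element. None of these motifs contains another. The largest difference between lower and uncalled promoters, in percentage points, was that of CAGGTG, found in 102 of 283 lower promoters (36.0%), 6 of 58 higher ones (10.3%) and 658 of 3602 not called (18.3%), beside 20.2% of all windows. Seen from the motif, 13.3% of the 766 promoters with CAGGTG were called lower and 5.70% of the 3177 without it. The same order was seen in both CpG classes, a split made after this share was seen, with 39.1% of lower and 22.4% of uncalled promoters at a ratio up to 0.6, and 32.6% and 16.3% above it, beside 13.2% and 5.00% of higher ones. In narrow promoters of the other chromosomes CAGGTG was found in 23.6% of 440 lower, 20.4% of 137 higher and 19.6% of 2769 uncalled promoters. At a ratio up to 0.6 these shares were 35.6%, 18.6% and 23.3%, and above it 17.5%, 23.5% and 17.1%. The order of the 8 chromosomes was thus seen there only at a ratio up to 0.6, not above it and not over all windows.

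**Figure D5:**
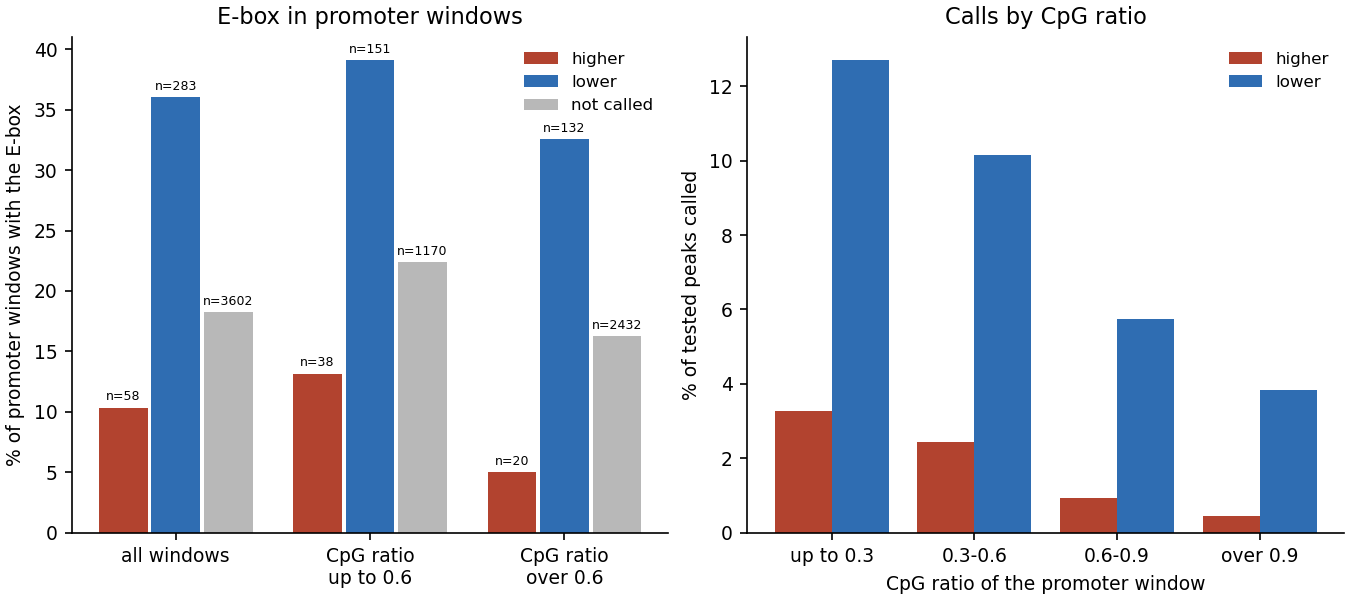
The left panel gives the percentage of RefSeq promoter windows in narrow promoter peaks that hold the SNAI and ZEB E-box, by call and by CpG ratio, with the number of windows above each bar, and the right panel the percentage of tested peaks called higher and lower by CpG ratio. The E-box is found in 36.0% of lower and 18.3% of uncalled windows, and both kinds of call become rarer as the CpG ratio goes up.

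Other motifs differed less or the other way. The ETS motif was in 3 of 58 higher promoters, 31 of 283 lower ones and 17.9% of those not called, the GC box in 48.3%, 54.1% and 60.9%, and the NRF1 motif in none, 0.71% and 3.55%. These are motifs of CpG-rich promoters. The AP-1 motif was in 6.90%, 9.19% and 5.25%, and the grainyhead motif in 13 of the 3943 windows, 1 of them lower and none higher. A match describes the letters in these windows and shows no binding.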

How the data were processed

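ATAC-seq was done on 3 resistant and 3 sensitive organoid libraries, with read pairs of 150 bp per the labels' protocols. The submitters' processing notes name the build mm10 and, with no role stated, DESeq2 1.26.0, ChIPseeker 1.22.1, Bowtie2 2.2.1, featureCounts, SAMtools 1.8, deepTools, GATK 4.1.3 and R 3.6.1. Which peak caller was used, and what was done with duplicates, is not given in the sources used here. Per the file headers, each peak has the authors' deposited mean normalized count (a signal), log2 fold change with standard error, Wald score, and p-value before and after adjustment. The design foresaw counts per library, but 6 such columns bear names that match no label and were not used, so the authors' own test is reported. Depth per library was not analysed here, and precision is that of the deposited standard errors.

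Everything else was computed in Python 3.11.15 with matplotlib 3.10.9, SciPy 1.17.1, NumPy 2.4.6 and pandas 2.3.3. Calls used an adjusted p under 0.05. As alternatives, the median of all tested peaks in the same 5 Mb window (at least 20 peaks, otherwise of the chromosome), of the chromosome, or of the 2001 peaks nearest in mean count was subtracted, and a normal test with the deposited error was adjusted anew. The window and chromosome subtractions were tested on simulated data with shifts of whole chromosomes. The subtractions that use the mean count were not tested in this way. Genes were named by rule: the 10 largest changes each way among called peaks at or above the median mean count, without predicted genes, the 5 smallest p each way, up to 3 called members per list whatever their mean count, the 5 highest mean counts and the peaks at the width limit, which are given as a group because their widths tie. Others were named after their values were seen. The members and the 29 gene lists were chosen with earlier results of these data known. Symbols that a spreadsheet had turned into dates were restored through their gene IDs. Promoter windows, microRNAs and gene spans are RefSeq's (GRCm38.p6), and a window belongs to a peak that contains its start.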

Additional observations from a re-analysis of the deposited data

How the results depend on the processing

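As deposited, 125 narrow promoters were called higher and 489 called lower. Subtracting a median lowered the second number, to 233 (5 Mb window), 261 (chromosome), 299 (mean count) and 188 (window and mean count together), beside 143, 165, 179 and 155 higher. The window subtraction kept 115 of the higher and 231 of the lower calls, and no call turned its direction under these 4. They moved the median log2 fold change of the set to between -0.03 and 0.01. A stricter threshold of 0.01 left 74 higher and 281 lower, and a change of at least 2-fold left 75 and 204. Among peaks with mean counts from 50 up, p-values adjusted anew, 56 were called higher, 41 of them among the 125. Called lower were 449, of which 322 were among the 489, so higher promoters made up 11.1% of the calls. A width up to 2000 bp left 33 higher and 39 lower. Fewer peaks enter under the last 2. Other alternatives, such as leaving out a chromosome or 1 peak per gene, stayed within 1.5 times both counts. No paired analysis was possible because the library columns carry names that match no label, and for the same reason no replicate was left out. The regional and mean count shifts may be biological or technical, which was not tested, and subtracting a median removes either. All results are those of 1 comparison of 6 libraries, and every direction would turn if the title of the table had the groups the other way round.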

Other observations

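Several genes had more than 1 narrow promoter called the same way, 8 of them higher and 17 lower. These genes were named after their values were seen. On the higher side, Gli3, a transcription factor of hedgehog signalling, had 1.33 and 1.39 at adjoining peaks, Meis2, a homeobox factor, 1.09 and 1.27, Bnc2, a zinc finger factor, 1.68 and 1.58 at low mean counts, and Bdnf, a neurotrophin gene, 1.56 and 0.85. On the lower side, Plekha7, which encodes a protein of epithelial adherens junctions, had -1.20, -1.16 and -0.76 at 3 promoters. P2ry2, the gene of a nucleotide receptor, had -1.10 and -0.82. Adjoining peaks share their surroundings and are not separate evidence.

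Other tested peaks of the same genes were compared. Of 98 genes with a higher narrow promoter and at least 1 other tested peak, 39 (39.8%) also had another peak called higher and 8 (8.16%) one called lower. Of 386 such genes with a lower narrow promoter, 166 (43.0%) had another peak called lower and 22 (5.70%) one called higher. Among 3845 genes with no called narrow promoter these shares were 7.54% higher and 20.3% lower. The peaks come from the same libraries, so this is a description.

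Some gene families had no call at all by the authors' DESeq2 test: 18 histone promoters (2 at an unadjusted p under 0.05), 17 olfactory receptor promoters (0) and 7 peaks of genes whose symbols begin as snoRNA genes do (1). With so few peaks, and with 7.88% of all tested narrow promoters called, a count of 0 does not set these families apart. Of 2 tested Hox promoters, Hoxb1 was lower at -0.91 (SE 0.26), a call that ended under 3 of the 4 subtractions.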
